A study of Mus musculus with 3 samples.

Results

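Gene expression in the homozygous DNMT3B7 library was compared with that in the hemizygous DNMT3B7 library, gene by gene. Both libraries were made from LSK cells of mouse fetal liver, a sorted fraction without lineage markers that bears the surface proteins Sca1 and c-Kit. The embryos were of strain C57Bl/6 at embryonic day 14.5 and carried the DNMT3B7 transgene on 1 chromosome copy (hemizygous) or on both (homozygous). Cells of 4 to 5 embryos were pooled for each library, with total RNA as the source, and 1 library stood for each genotype. A WT library without the transgene, prepared in the same way, is given beside them as the third library of the series. The comparison covered 1439 genes, which is 4.33% of the 33250 identifiers that are not small RNA genes. They are the genes with an estimate marked OK in both libraries that lie in the opening segments of 10 chromosomes, together with the 13 mRNAs of the mitochondrial genome. Elsewhere in the genome the deposited values could not be relied on and were not compared gene by gene. They did enter the totals over all genes other than small RNA genes and the estimate of the value worth 1 fragment. The promoter of the transgene and the founder line are, in the sources used here, not given, and expression of the transgene was not analysed here.

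DNMT3B is an enzyme that places new methyl groups on cytosine in CpG dinucleotides, and DNMT3B7 is a truncated form of it that lacks the catalytic domain and is known from cancer cells. The LSK fraction of the fetal liver holds blood stem cells and multipotent progenitors, which feed the red cell, platelet, myeloid and lymphoid lineages. Early B-lymphoid cells are known by the surrogate light chain, a pair of proteins, VpreB and lambda5, that sits with the newly made immunoglobulin heavy chain, in place of a true light chain, to form the pre-B cell receptor.

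Each value below is the deposited FPKM, as named by the authors, divided by 1 factor common to all libraries. By name FPKM is fragments per length of transcript, scaled for sequencing depth. The deposited scale was not in proportion to the fragments estimated below. A log2 ratio is that of value + 1 in the homozygous over the hemizygous library, and a gene counted as higher or lower when it was at least 1 in size, a 2-fold difference. Where 2 values of a gene are given they are in the order hemizygous, homozygous, and where 3 are given in the order WT, hemizygous, homozygous. With 1 library for each genotype there was no replicate error and no test. Each ratio compares 2 libraries, and differences between embryos or between library preparations cannot be told apart from those of genotype. The 95% counting interval beside a ratio is that of the plain ratio of estimated fragments, so it covers counting error only. Fragments were estimated from the smallest steps between low values and the transcript lengths. Estimated fragments on the genes other than small RNA genes came to 2990000 (WT), 2990000 (hemizygous) and 2300000 (homozygous). Ly6a and Kit, which encode Sca1 and c-Kit, lie outside the segments, with Ly6a listed at 0 in all 3 libraries and Kit at 0, 0.731 and 0.405, so the sort could not be checked on them.

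Most genes had close values in the hemizygous and the homozygous library. Of the 1439 genes compared, 952 reached a value of 1 in at least 1 of the libraries and are called measured, while 319 were listed at 0 in both. The median log2 ratio of the measured genes was -0.05, and 88.6% of them lay within 1.5-fold. In all, 43 genes (4.52% of those measured) were past the 2-fold rule, 16 higher (1.68%) and 27 lower (2.84%) in the homozygous library. Among the 387 genes that reached a value of 100 in 1 or both libraries, 96.9% lay within 1.5-fold, 0 were higher and 2 were lower. Those 2 were Vpreb1 and the pseudogene Gm6293. Low values carried most of the differences: 24 of the 43 genes had fewer than 10 estimated fragments in the 2 libraries together, and 26 of the 43 were unnamed gene models or pseudogenes. Counting intervals without 0 were found for 8 of 16 higher and for 13 of 27 lower genes.

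**Figure D1:**
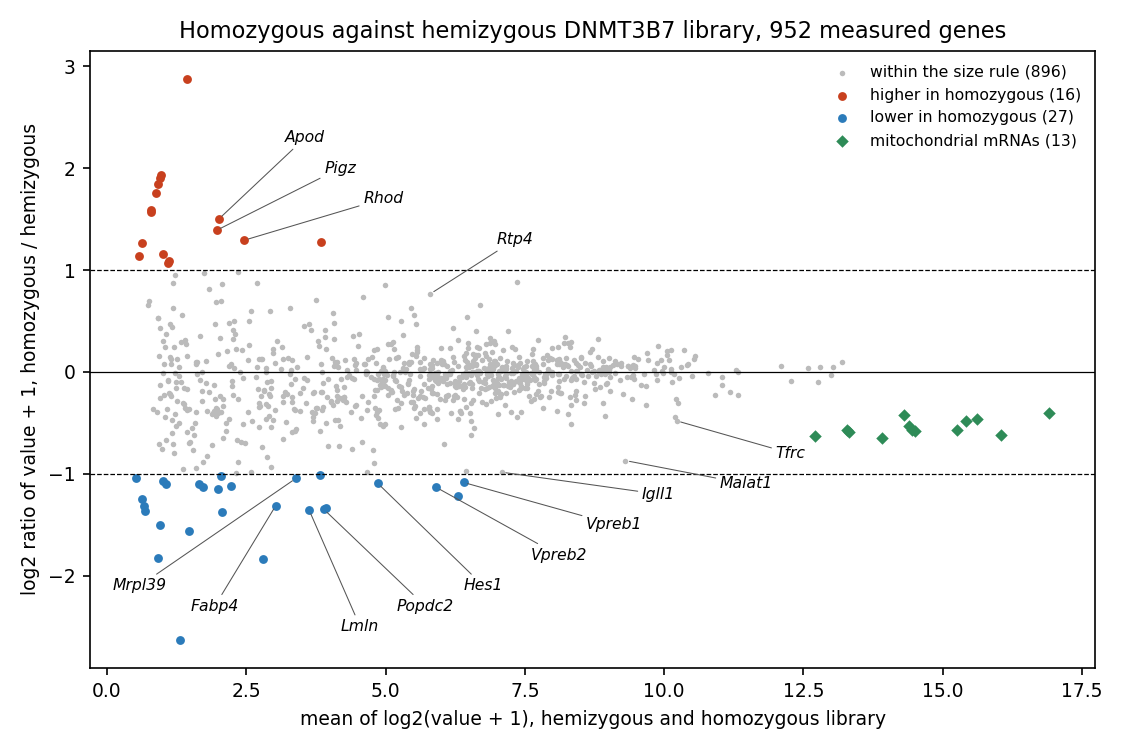
Each point is 1 of the 952 measured genes, with the mean of log2(value + 1) in the hemizygous and homozygous libraries on the x axis and the log2 ratio of value + 1 on the y axis, and dashed lines mark the 2-fold rule. The spread narrows to the right, the 16 higher genes sit at low levels, Vpreb1, Vpreb2 and Igll1 stand out below at moderate levels, and the 13 mitochondrial mRNAs lie together between -0.65 and -0.41.

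How the libraries are scaled to each other sets the balance of higher and lower genes. The ratios above were taken as deposited, and the sum of values over all genes other than small RNA genes was 1150000, 1030000 and 860000 in the WT, hemizygous and homozygous library. Setting the sums over the genes compared equal, mitochondrial mRNAs included, moved every homozygous value up by 0.36 on the log2 scale and turned the split to 29 higher and 14 lower. Setting the sums of the nuclear genes equal moved them by 0.02 (17 higher, 26 lower), and a median-ratio scaling by 0.06 (18 higher, 24 lower). The sign of the ratio changed under the first scaling for 109 of the 278 genes named here or held in the gene lists.

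Of the named genes past the 2-fold rule on the lower side, the surrogate light chain genes Vpreb1 and Vpreb2 had the highest values. Vpreb1 (ENSMUSG00000059305) and Vpreb2 (ENSMUSG00000059280) encode 2 forms of VpreB, and Igll1 (ENSMUSG00000075370) encodes lambda5. All 3 lie on chromosome 16. Their promoter sequences are shown because a DNA methyltransferase acts on CpG sites and these 3 genes were lower together, and the promoter of Mrpl39, a gene that was lower by a like amount, is set beside them. Each is a RefSeq sequence of build GRCm38.p6, from 250 bases before to 50 bases after the annotated start, written 5′ to 3′ on the gene's strand with each CpG in capitals. The positions are chr16:16869206-16869505 on the minus strand for Vpreb1, chr16:17980315-17980614 on the plus strand for Vpreb2, chr16:16863936-16864235 on the minus strand for Igll1 and chr16:84735195-84735494 on the minus strand for Mrpl39.
Vpreb1: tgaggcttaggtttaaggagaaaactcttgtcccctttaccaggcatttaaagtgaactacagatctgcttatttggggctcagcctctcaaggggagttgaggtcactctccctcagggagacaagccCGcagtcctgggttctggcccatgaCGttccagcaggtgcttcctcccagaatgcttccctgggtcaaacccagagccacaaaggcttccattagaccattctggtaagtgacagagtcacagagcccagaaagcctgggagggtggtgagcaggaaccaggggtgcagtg
Vpreb2: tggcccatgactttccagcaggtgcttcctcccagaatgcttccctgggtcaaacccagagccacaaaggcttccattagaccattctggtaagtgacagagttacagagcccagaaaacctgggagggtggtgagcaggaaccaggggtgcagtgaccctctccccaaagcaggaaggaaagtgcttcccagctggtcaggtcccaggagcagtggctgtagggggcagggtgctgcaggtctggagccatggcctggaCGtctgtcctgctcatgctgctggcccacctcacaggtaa
Igll1: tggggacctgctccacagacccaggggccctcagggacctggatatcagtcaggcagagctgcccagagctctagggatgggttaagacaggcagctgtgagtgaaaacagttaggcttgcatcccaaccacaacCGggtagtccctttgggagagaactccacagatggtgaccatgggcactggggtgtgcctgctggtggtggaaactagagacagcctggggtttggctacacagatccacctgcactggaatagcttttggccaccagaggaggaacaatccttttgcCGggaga
Mrpl39: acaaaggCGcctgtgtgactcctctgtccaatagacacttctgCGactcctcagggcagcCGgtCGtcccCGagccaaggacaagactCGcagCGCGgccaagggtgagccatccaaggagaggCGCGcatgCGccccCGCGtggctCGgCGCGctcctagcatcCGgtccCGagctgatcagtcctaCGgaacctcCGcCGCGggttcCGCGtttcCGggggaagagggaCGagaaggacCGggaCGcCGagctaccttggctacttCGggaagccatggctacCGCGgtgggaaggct

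The windows of the surrogate light chain genes were poor in CpG, the dinucleotide CG, which reads the same on both strands. Vpreb1 held 2, Vpreb2 held 1 and Igll1 held 2, whereas Mrpl39 held 32. Over 27025 genes with such a window the median was 7, with at most 2 in 23.2% and at least 32 in 8.64%. The windows of Vpreb1 and Vpreb2 share an identical run of 91 bases, and, laid over each other with a shift of 144 bases, 153 of 156 overlapping bases are the same. Methylation was not measured, so these counts describe the sequence only. A window was found for 5 of the 7 lower genes named by the size rule. Besides Vpreb1, Vpreb2 and Mrpl39 these were Popdc2, with 7 CpG, and Lmln, with 44. Of the 3 higher genes so named 2 had a window, Apod with 4 and Pigz with 15. Genes that were lower in the homozygous library thus included both CpG-poor and CpG-rich windows. Windows were found for 64.5% of the 939 measured nuclear genes, and with so few named genes groups were not compared.

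Vpreb1 had values of 174 (WT), 122 (hemizygous) and 57.0 (homozygous). Vpreb2 was at 107, 88.3 and 39.7 in the same order, and Igll1 at 236, 190.0 and 95.5. For each of the 3 genes the homozygous library was the lowest and the WT library the highest, with the hemizygous library nearer to WT. The log2 ratio of the homozygous to the hemizygous library was -1.09 for Vpreb1 (95% counting interval -1.47 to -0.72) and -1.13 for Vpreb2 (-1.54 to -0.79). Igll1, at -0.98 (-1.15 to -0.84), missed the 2-fold rule by a small margin and had the narrowest interval of the 3, from an estimated 1064 and 483 fragments. Under the scaling to equal sums the 3 ratios were -0.74, -0.79 and -0.63, so Vpreb1 and Vpreb2 no longer passed the rule while the direction stayed the same. Reads of Vpreb1 and Vpreb2 are partly shared, since Vpreb2 holds 18.8% of all 50-base stretches found in Vpreb1, and Vpreb1 holds 32.8% of those found in Vpreb2. Igll1 shares 0% with any other gene.

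Apart from the pair Igll1 and Vpreb1, the nearest neighbours of the surrogate light chain genes lay within 1.5-fold. Igll1 and Vpreb1 stand next to each other among the measured protein-coding genes with a value of at least 5, and on their far side Top3b, a topoisomerase whose exons overlap Vpreb1 on the opposite strand, was at 345 and 382 (0.14). Fgd4, on the other side of Igll1, was at 91.2 and 69.7 (-0.38). Vpreb2 stands between Slc25a1, the mitochondrial citrate carrier (388 and 363, log2 ratio -0.10), and Dgcr6 (113 and 105, -0.11). Taking up to 3 such neighbours on each side of the 7 lower genes named by the size rule gave 42 genes, Igll1 among them, a set chosen after the values were seen. Of these, 0 passed the 2-fold rule, 39 lay within 1.5-fold and the median ratio was -0.05. Among all 797 measured genes with a value of at least 5, 92.7% lay within 1.5-fold, 5 were higher and 14 lower. The median of those 797 was also -0.05, so the neighbours were close to the genes at large. Beyond 1.5-fold among the 42 were Igll1 (-0.98), in the same direction as its neighbour Vpreb1, and Cd80 (0.98) and Gp5 (0.73), in the opposite direction.

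Other early B-lymphoid genes could be compared only in part. Of the 16 genes in the list for this stage, 4 lay in the segments, and the fourth, Bcl6, a repressor of germinal centre B cells, was at 7.23 and 5.97 (-0.24, interval -0.72 to 0.15). Cd79a, Rag1, Dntt and Il7r lie outside the segments. The summed value of Igll1, Vpreb1 and Vpreb2 was 517 (WT), 400 (hemizygous) and 192 (homozygous). In a bulk library, fewer early B-lymphoid cells in the pool and less of these mRNAs in each cell cannot be told apart. St6gal1, a Golgi enzyme that caps glycoproteins with sialic acid, stood at 48.2 (WT), 36.9 (hemizygous) and 19.4 (homozygous). It followed the same order as the surrogate light chain genes, short of the rule at -0.89 (interval -1.21 to -0.65), and its exons overlap BC106179.

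Hes1 (ENSMUSG00000022528), a transcriptional repressor switched on by Notch receptors, stood at 32.99 (WT), 41.5 (hemizygous) and 18.9 (homozygous). The hemizygous library was the highest and the homozygous the lowest. The log2 ratio was -1.09 with a counting interval of -1.88 to -0.42, and it was -0.76 with equal sums. Of the 23 genes of the Notch pathway list, 5 were measured and Hes1 alone passed the rule, with 1 of 5 lower and 0 higher, beside 2.84% lower and 1.68% higher among all measured genes. Hey1, another Notch target, was at 1.40 and 1.03, from under 5 estimated fragments in each library. Genes that act on the receptors and their ligands had close values in both libraries. Mib1, the ubiquitin ligase that acts on Notch ligands, was at 197 and 207, Poglut1, which glycosylates the receptor, at 111 and 106, and Dtx3l, a ligase of the Deltex family, at 79.2 and 88.1. The median of the 5 genes was -0.07, beside -0.05 over all measured genes.

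Another 4 named genes were lower by the size rule. Popdc2 (ENSMUSG00000022803), a membrane protein of muscle that binds cyclic AMP, stood at 27.4 (WT), 22.7 (hemizygous) and 8.31 (homozygous), a log2 ratio of -1.35 (-2.27 to -0.71). Lmln (ENSMUSG00000022802), a metallopeptidase related to leishmanolysin, was at 14.7, 18.8 and 6.73, a ratio of -1.36 (-2.42 to -0.60). For both genes the homozygous library stood well below the other two. Fabp4 (ENSMUSG00000062515), a carrier of fatty acids in adipocytes and macrophages, was at 11.4, 11.9 and 4.18, a ratio of -1.31 (-2.07 to -0.96). Mrpl39 (ENSMUSG00000022889), a protein of the large subunit of the mitochondrial ribosome, was at 20.01, 14.1 and 6.29, a ratio of -1.05 (-1.84 to -0.53). The WT library was close to the hemizygous one for Fabp4 and above it for Mrpl39. With equal sums Popdc2 (-1.03), Lmln (-1.04) and Fabp4 (-1.02) remained past the rule and Mrpl39 (-0.73) did not, and Mrpl39 lay at -0.997 under median-ratio scaling. Popdc2 shares 1.70% of its stretches with the overlapping gene Gm21987, and Lmln, Fabp4 and Mrpl39 overlap no other gene.

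In all 7 of these lower genes, and in the 3 higher genes described next, the WT value was nearer to the hemizygous than to the homozygous one. Of the 7 lower genes the WT library was the highest for 4 (Vpreb1, Vpreb2, Popdc2 and Mrpl39) and between the other libraries for 3. Over all 43 genes past the rule, WT was nearer to the hemizygous library for 26, that is 10 of 16 higher genes and 16 of 27 lower genes. The hemizygous library enters the ratio by which these genes were taken, so this is a description of the 3 libraries.

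**Figure D2:**
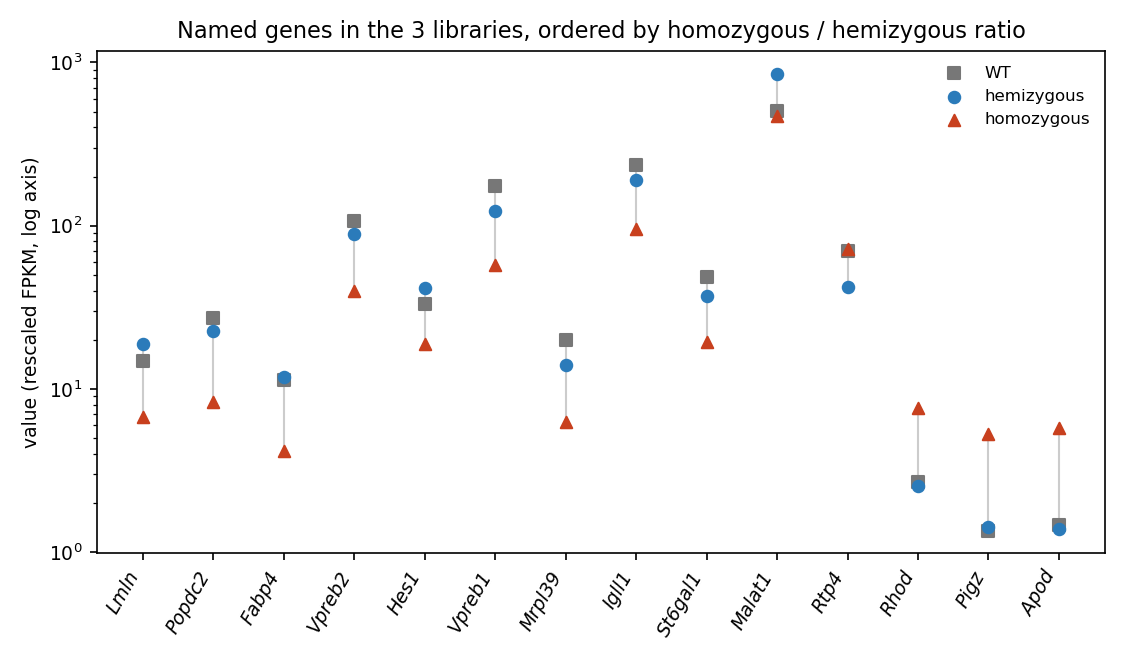
Points give the value (rescaled FPKM, log axis) of 14 genes in the WT (grey squares), hemizygous (blue circles) and homozygous (red triangles) library, ordered by the homozygous to hemizygous ratio, with a line joining the lowest and the highest. The homozygous point is the lowest for the 9 genes from Lmln to St6gal1 and for Malat1, and it is the highest for Rtp4, Rhod, Pigz and Apod.

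The named genes with higher homozygous values were all of low level. Rhod (ENSMUSG00000041845), a small GTPase of endosomes and the actin skeleton, stood at 2.68 (WT), 2.53 (hemizygous) and 7.66 (homozygous), a log2 ratio of 1.29 (0.61 to 2.78). Apod (ENSMUSG00000022548), the lipocalin apolipoprotein D, was at 1.47, 1.39 and 5.77, a ratio of 1.501 (0.10 to 4.50). Pigz (ENSMUSG00000045625), a mannosyltransferase of the GPI anchor pathway, was at 1.36, 1.42 and 5.33, a ratio of 1.39 (-0.75 to 5.07). In each case the WT and hemizygous values were nearly equal. Apod rested on an estimated 2.96 hemizygous and 11.1 homozygous fragments, and Pigz on 1.82 and 6.18. Rhod had 11.3 and 30.9, and the overlapping gene A930001C03Rik on the opposite strand was listed at 0 in the hemizygous library and at 2.02 in the homozygous library, so their reads cannot be told apart without the strand. Pigz shares 5.48% of its stretches with Gm49731.

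Named genes past the rule with values under 5 are given here although the naming rule leaves them out, so they were chosen after their values were seen. Trat1, an adaptor of the T cell receptor, stood at 2.06 (WT), 0.487 (hemizygous) and 2.16 (homozygous), and Greb1l at 0.644, 0.351 and 2.01. Frmd8os, an antisense RNA whose exons overlap Frmd8 on the opposite strand, was listed at 0 in the hemizygous library and at 1.96 in the homozygous library. On the lower side Zbtb20, a zinc finger transcription factor, was at 1.89, 4.94 and 1.67, and Impg2, a matrix protein of the retina, at 0.575, 2.07 and 0.425. Cldn20, a claudin of tight junctions, was at 1.08, 3.59 and 1.13, and the growth factor Pdgfd at 3.38, 4.91 and 1.91. For 4 of these 7 genes, Trat1, Zbtb20, Impg2 and Cldn20, the hemizygous library stood apart from both WT and homozygous values. The counting interval included 0 for Zbtb20 (-4.21 to 0.19), Cldn20 (-4.96 to 0.73) and Frmd8os (from -2.27, with no upper limit). It lay off 0 for Trat1 (0.69 to 3.92) and Impg2 (-4.07 to -0.95). Estimated hemizygous and homozygous fragments were 11.3 and 3.45 for Zbtb20, 6.99 and 2.00 for Cldn20, and 0 and 2.20 for Frmd8os. The hemizygous library enters the ratio by which these genes were taken, so this describes the 3 libraries only. Just short of the rule, beside Igll1, lay Cd80 (2.65 and 6.22, log2 ratio 0.98), Ccdc80 (1.40 and 3.71, 0.97), Tnp2 (0.677 and 2.25, 0.95), Cabp4 (2.57 and 0.843, -0.95) and Stfa2 (3.20 and 1.18, -0.95). Just past it, among named genes, lay Pdgfd (-1.02), Mrpl39 (-1.05), Vpreb1 (-1.09) and Trat1 (1.09).

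The mRNAs encoded by the mitochondrial genome had values of 5410 to 173774 over the 3 libraries and were lower in the homozygous library as a group, each by less than the 2-fold rule. They encode subunits of respiratory complexes I, III and IV and of the ATP synthase. All 13 were lower, 0 passed the rule, and the median log2 ratio was -0.57, beside -0.05 for the 939 measured nuclear genes. The ratios ran from -0.65 for mt-Nd4 to -0.41 for mt-Atp8, and all 13 counting intervals lay below 0. The complex I subunit mt-Nd4 stood at 21295 (WT), 19177 (hemizygous) and 12226 (homozygous). The complex IV subunit mt-Co1 was at 54409.9, 47593 and 32102.5, a ratio of -0.57. In the WT library each of the 13 was higher still than in the hemizygous library.

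The size of the difference varied little among the 13 mRNAs. The 7 complex I subunits spanned -0.65 to -0.42 (mt-Nd4 and mt-Nd3). The complex IV subunits mt-Co2 (-0.48) and mt-Co3 (-0.46) were nearer to 0 than mt-Co1 (-0.57), and mt-Cytb of complex III lay at -0.58. Of the ATP synthase subunits, mt-Atp6 was at -0.62 and mt-Atp8, whose reading frame overlaps it, at -0.41. The only one transcribed from the light strand, mt-Nd6, was at -0.57 like most of the others. The 2 ratios nearest to 0 belong to short mRNAs, mt-Atp8 with 204 bases and mt-Nd3 with 348, though mt-Nd4l with 297 bases was at -0.57. For mRNAs this short the estimated fragments depend most on the fragment length taken. That length affects the counting intervals and the shares of fragments given next, but not the log2 ratios.

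Of the estimated fragments on the genes compared, these 13 mRNAs held 63.9% (95% Wilson interval 63.8 to 63.9) in WT, 60.1% (60.1 to 60.2) in hemizygous and 51.1% (51.0 to 51.2) in homozygous LSK cells. They therefore dominate any scaling to equal sums. Under that scaling the median ratio was -0.21, from -0.29 for mt-Nd4 to -0.05 for mt-Atp8, so the 13 remained below 0. With the nuclear sums set equal it was -0.54, and with median-ratio scaling -0.51. The homozygous library was also the shallowest of the 3. In the hemizygous and homozygous library, 1160000 and 717000 estimated fragments lay on the mitochondrial mRNAs, and 772000 and 685000 on the nuclear genes compared. The lower depth thus includes the mitochondrial difference and is not separate from it. The part of depth or library preparation in this difference was not tested.

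**Figure D3:**
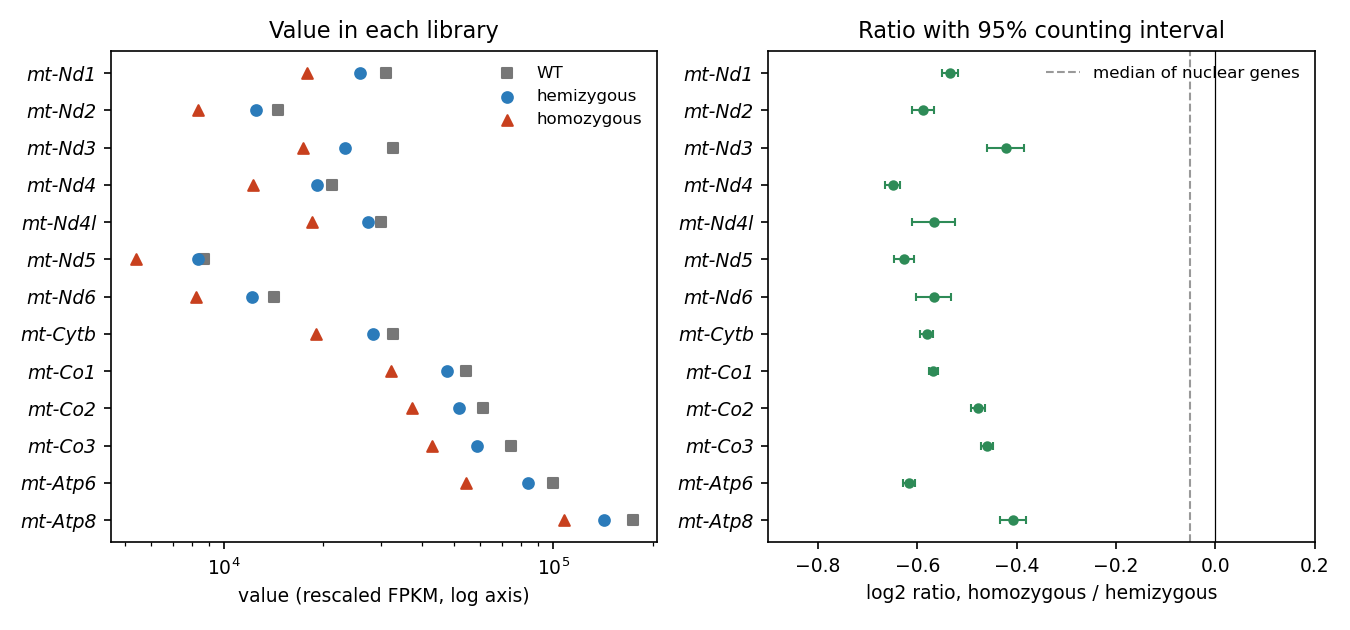
The left panel gives the value (rescaled FPKM, log axis) of the 13 mitochondrial mRNAs in the WT, hemizygous and homozygous library, and the right panel the log2 plain ratio of the homozygous to the hemizygous library with its 95% counting interval. The homozygous library was the lowest for each of the 13, and every interval lies to the left of both 0 and the dashed line at the median of the nuclear genes (-0.05).

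Nuclear genes for mitochondrial proteins did not follow the mitochondrial mRNAs. Of 20 measured, 1 was lower (Mrpl39) and 0 higher, the median was 0.06, and 14 of 20 lay above 0, beside 4.52% past the rule and 39.3% above 0 among all measured genes. The name of this list goes beyond some members, such as Pcyt1a (-0.14), which is also in the lipid list, and Sod1 (0.08). Ndufv1 and Ndufs8, core subunits of complex I, were at 1104 and 1128 (0.03) and at 668 and 737 (0.14) in the hemizygous and homozygous library. Atp5j and Atp5o, subunits of the ATP synthase, were at 677 and 711 (0.07) and at 489 and 505 (0.05). Other proteins of the mitochondrial ribosome had ratios near or above 0, with Mrpl49 at 277 and 273 (-0.02), Mrps6 at 110.2 and 136 (0.30), Mrpl40 at 287 and 315 (0.13) and Mrpl11 at 122 and 128 (0.08). With equal sums the median of this list was 0.41.

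The gene lists used here hold 748 genes in 26 groups, of which 302 lay among the genes compared and 250 were measured. Of these 250 genes 11 were past the rule, a share of 4.4% that is close to the 4.52% over all measured genes. In 18 of the 26 lists no measured member passed it. The lists with 2 such members were the surrogate light chain list (Vpreb1 and Vpreb2, 2 of 4 lower), the lipid list (Fabp4 lower and Apod higher, of 10) and the list of genes silent in most blood cells (Popdc2 and Impg2, 2 of 6 lower). The name of the last list goes beyond its members, since the adaptor Samsn1 (158 and 146) and the mucin Muc13 (53.9 and 55.1) had moderate values in these libraries. The other 5 lists had 1 member past the rule each: Hes1, Mrpl39 and Zbtb20 lower, Rhod and Pigz higher.

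**Figure D4:**
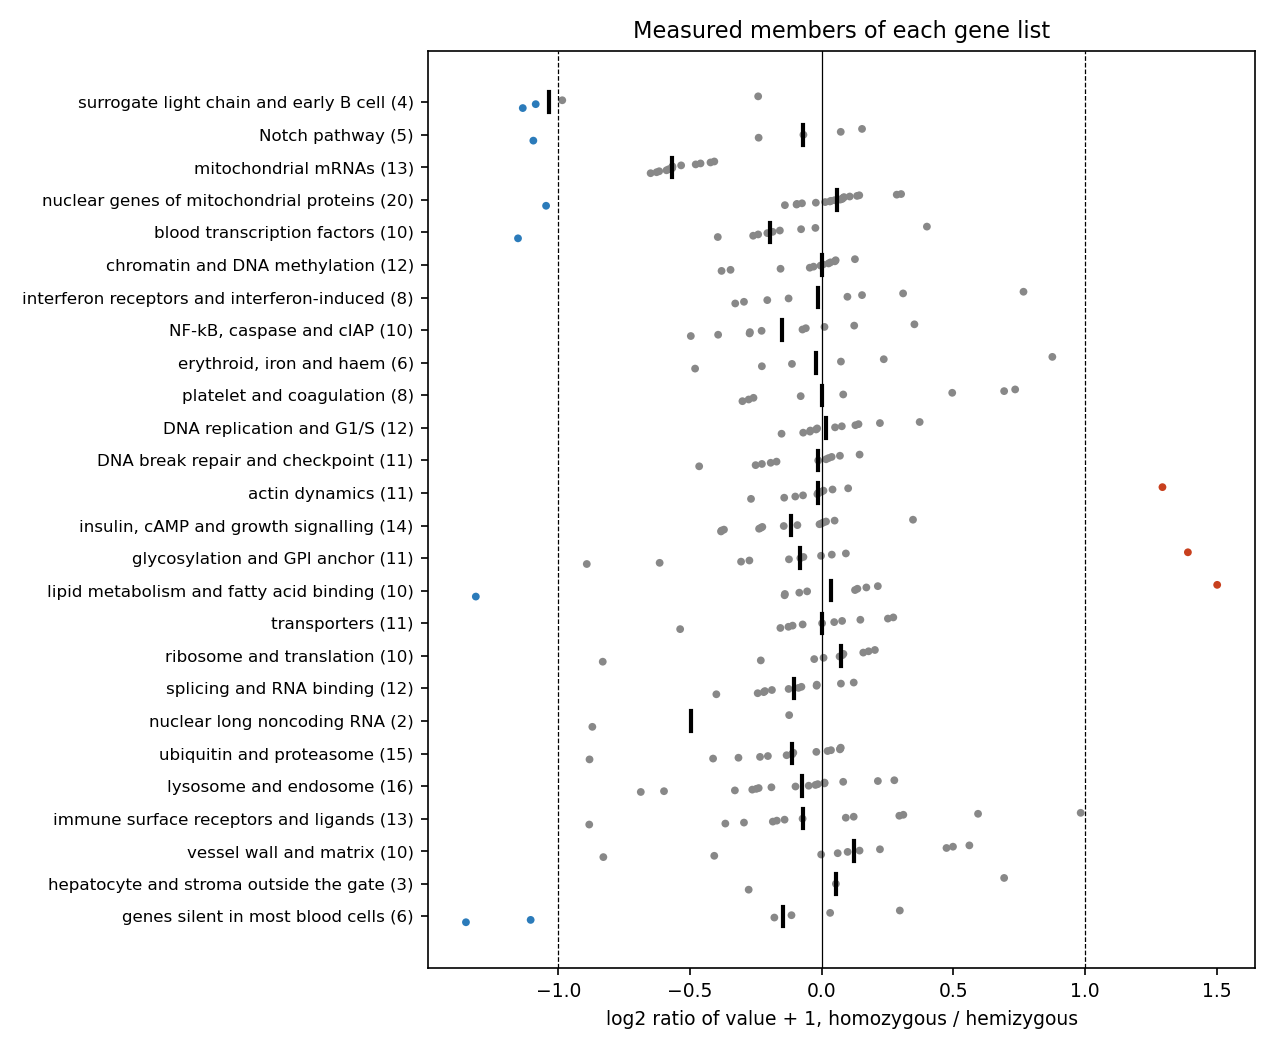
Each point is a measured member of 1 of 26 gene lists, placed by its log2 ratio of value + 1 in the homozygous over the hemizygous library, with the number of measured members in brackets, a black bar at the median and dashed lines at the 2-fold rule. Most medians lie near 0, while those of the surrogate light chain list (-1.04), the mitochondrial mRNAs (-0.57) and the 2 nuclear noncoding RNAs (-0.50) lie to the left.

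Among chromatin genes 0 of 12 measured passed the rule, beside 4.52% of all measured genes, and the median was 0.00. Dnmt3a, the other de novo DNA methyltransferase, stood at 603 (WT), 698 (hemizygous) and 683 (homozygous), a log2 ratio of -0.03 (-0.13 to 0.07). Crebbp, a histone acetyltransferase, was at 43.2, 62.5 and 47.8 (-0.38, interval -0.60 to -0.18), and Zmynd11, a reader of histone methylation, at 83.4, 97.0 and 76.1 (-0.35). In both, the hemizygous library was the high one and the homozygous library lay near WT. Kdm2a, Kat5, Hira, Ing1 and Men1 had ratios between 0.00 and 0.05. With equal sums Dnmt3a (0.32) and Zmynd11 (0.01) changed sign and Crebbp was at -0.03.

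Of 10 measured blood transcription factors, 9 had ratios below 0, with a median of -0.20, and 1, Zbtb20, was lower by the rule. Over all measured genes 60.7% lay below 0, the median was -0.05 and 2.84% were lower by the rule. Runx1, needed for blood stem cells to form, stood at 152 (WT), 153 (hemizygous) and 132 (homozygous) (-0.21, interval -0.32 to -0.10). Klf6, an early response factor, was at 61.6, 62.4 and 47.2 (-0.39, interval -0.70 to -0.11), and Dmtf1 at 133, 138 and 115 (-0.26). For Runx1, Klf6 and Dmtf1 WT and hemizygous values were alike and the homozygous value lower. Other members differed from this. Nrip1 (80.2, 119 and 106), Gabpa (178, 226 and 198) and Bach1 (100, 114 and 112) were highest in the hemizygous and lowest in the WT library. Etv5, an ETS family factor, had a ratio above 0, with 71.9, 84.8 and 112 (0.40, interval 0.02 to 0.80). With equal sums the median of the list was 0.16, Runx1 (0.15) and Dmtf1 (0.09) changed sign and Klf6 was at -0.05.

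No gene of the red cell list passed the rule, which is set on value + 1 (0 of 6, beside 4.52% of all measured genes). Tfrc, the transferrin receptor by which erythroblasts take up iron, stood at 1280.3 (WT), 1414 (hemizygous) and 1013 (homozygous), a log2 ratio of -0.48 (-0.56 to -0.41) and -0.13 with equal sums. The carbonic anhydrase gene Car2 was at 2199.9, 2091 and 1786 (-0.23), and Cpox, an enzyme of haem synthesis, at 442, 442 and 409 (-0.11). Both of these change sign with equal sums. Car1 was at 64.7, 65.0 and 76.7 (0.24), and Car3, mainly a muscle and fat enzyme, at 7.59, 3.76 and 7.74 (0.88), a plain ratio of 2.06, and it passed the rule with equal sums (1.19). The summed value of the 4 erythroblast markers measured was 3987, 4012 and 3285.

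Platelet genes had higher values in the homozygous library for Gp5, a subunit of the von Willebrand factor receptor, which stood at 16.5 (WT), 17.7 (hemizygous) and 30.1 (homozygous). Its log2 ratio was 0.73 (0.46 to 1.06) and it passed the rule only with equal sums (1.08). Gp1bb, another subunit of it, stood at 5.50, 3.09 and 4.76 (0.50, interval -0.31 to 1.58), with the homozygous value below WT. Rasgrp2, which activates the integrin-controlling GTPase Rap1 in platelets, was at 1339, 1346 and 1092 (-0.30), a ratio that turns positive with equal sums. Of 8 measured genes in this list 4 lay below and 4 above 0, beside 60.7% below and 39.3% above among all measured genes.

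In the interferon list the receptors and the induced genes lay on opposite sides of 0 as deposited. The receptor subunits Ifnar1 (132 and 115, log2 ratio -0.21), Ifnar2 (157 and 125, -0.33), Ifngr2 (86.4 and 79.1, -0.13) and Il10rb (117 and 95.2, -0.30) were below it. Among the induced genes Rtp4, a receptor transport protein, stood at 69.5 (WT), 41.8 (hemizygous) and 71.8 (homozygous), a ratio of 0.77 (0.50 to 1.07), so that the hemizygous library stood apart. Parp9 (69.5 and 86.3, 0.31), Dtx3l (0.15) and Parp14 (46.6 and 49.9, 0.10) were also above 0. No member passed the rule (0 of 8, beside 4.52% of all measured genes), and the median was -0.01. With equal sums Rtp4 passed the rule (1.12) and the 4 receptor subunits changed sign, Ifnar2 to 0.02. Of the stress and survival genes, the inhibitors of apoptosis Birc2 (103 and 85.4, -0.27) and Birc3 (174 and 132, -0.39) and the inflammatory caspase Casp1 (73.0 and 60.2, -0.27) were below 0, and Rela, a subunit of NF-kB, was at 211 and 200.5 (-0.07). Socs1, an inhibitor of cytokine signalling, was at 17.9 and 23.2 (0.35, interval 0.09 to 0.65), above 0. Of the 10 measured genes in this list 7 lay below and 3 above 0, and 0 passed the rule. Among all measured genes 60.7% lay below 0 and 4.52% passed the rule. With equal sums Birc3 remained below 0 (-0.04) and Birc2, Casp1 and Rela did not.

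Malat1, an abundant nuclear noncoding RNA, stood at 503 (WT), 854 (hemizygous) and 467 (homozygous). WT and homozygous values were close and the hemizygous value was the high one. Its log2 ratio was -0.87 (-1.002 to -0.74) and -0.52 with equal sums. Neat1, the noncoding RNA of nuclear paraspeckles, was at 89.4, 96.4 and 88.4 (-0.12). Alg3, a mannosyltransferase of the glycosylation pathway, showed the pattern of Malat1 at 79.6, 114 and 74.1 (-0.62, interval -0.83 to -0.41).

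Genes of DNA replication had close values in both libraries. All 12 measured members lay between -0.15 and 0.37, with a median of 0.02. Mcm4, a helicase subunit, was at 402 and 390 (-0.04), Pola2, a subunit of DNA polymerase alpha, at 470.2 and 465 (-0.02), and Cdc45, which joins the helicase, at 19.2 and 25.2 (0.37, interval 0.02 to 0.76). Of 11 genes of break repair and checkpoint, Polq, the polymerase of microhomology-mediated joining, was the lowest at 72.3 (WT), 70.6 (hemizygous) and 50.9 (homozygous), a ratio of -0.47 (-0.57 to -0.37). The other 10 lay between -0.25 and 0.14. Translation genes lay close together too, with Eif4g1 at 1425 and 1589 (0.16) and Gspt1 at 988 and 1137 (0.20), except Rpl39l at 8.74 and 4.47 (-0.83, interval -2.43 to 0.25). The most abundant nuclear gene, Cfl1, which severs actin filaments, was at 9022 and 9671 (0.10).

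Among markers of other cell types, Col4a1 and Col4a2 of the vessel wall and Gp5 of megakaryocytes were higher in the homozygous library. Each was higher by less than 2-fold. Col4a1 and Col4a2, basement membrane collagens of the vessel wall that overlap each other, were at 31.7 and 45.2 (log2 ratio 0.50, interval 0.02 to 1.03) and at 36.4 and 54.1 (0.56, interval 0.20 to 0.93) in the hemizygous and homozygous library. Together with Cldn5 (1.93 and 2.14) and Jam2 (1.08 and 1.301), 4 of 7 vessel markers were compared, and they summed to 55.5 (WT), 71.1 (hemizygous) and 103 (homozygous). The counting intervals of Cldn5 (-1.27 to 1.57) and Jam2 (-1.43 to 2.22) included 0, and the 2 collagens made up most of the sum. Of 7 hepatocyte markers 5 were compared, with Fetub and Hrg listed at 0 in all 3 libraries and a sum of 4.53, 4.58 and 5.09. The 2 megakaryocyte markers compared, Gp5 and Gp1bb, summed to 22.0, 20.8 and 34.9, most of it from Gp5. The 2 granulocyte and monocyte markers, Cebpd and Mmp8, summed to 45.6, 39.7 and 35.8. Fabp5, the close relative of Fabp4, stood at 1342 (WT), 1211 (hemizygous) and 1404 (homozygous) (0.21), the opposite direction from Fabp4. The part of such cells in the differences described above was not tested.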

How the data were processed

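RNA sequencing of 1 library per genotype was deposited as FPKM per gene with an estimate status, per the file headers. The submitters' processing notes name the genome build mm9 and the tools Cufflinks, Bowtie2 and TopHat2, with neither version nor role. Annotation, strand setting and fragment length: not given in the sources used here. Without small RNA genes, deposited FPKM summed to between 3650000000 and 4880000000 per library, more than that unit allows. The steps described below give a denominator of only 949 (WT), 1003 (hemizygous) and 906 (homozygous) fragments, which accounts for sums of that size. Why the denominators are so small is not known. They were not in proportion to the estimated fragments, which came to 2990000 in both the WT and the hemizygous library. The deposited FPKM were divided by 1 factor for all libraries (4245), which was taken as given and could not be derived exactly again from the files. It leaves plain ratios as deposited but sets where the pseudocount of 1 and the minimum of 1 lie, so the calls depend on it.

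Gene types, order and transcript lengths came from GENCODE M21 (GRCm38), which matched 36463 of 38205 identifiers (95.4%). Base positions refer to GRCm38.p6 alone. Small RNA genes were left out. The segments, the members and the gene lists were chosen with earlier results of these data known.

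FPKM times transcript length less 200 bases came in whole steps, within 0.05, for 70.6% of 878 low values (WT), 68.2% of 970 (hemizygous) and 71.1% of 896 (homozygous), against 10% for evenly spread values. A step was taken as 1 fragment. The low values came from genes with 1 annotated transcript, both in and outside the segments. Fragments per gene used the median transcript length less 200 bases, set to at least 50 bases. The intervals are exact conditional (Clopper-Pearson) ones at 95%, for counting error only. They are approximate because the lengths are. Shares of fragments have Wilson intervals, also for counting error only.

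Named genes have a name rather than a gene model code, a value of at least 5 in the hemizygous or homozygous library and a log2 ratio at least 1 in size, with at most 15 in each direction. Measured list members and the most abundant nuclear genes were named besides. The 1439 genes compared leave out 2 whose status was not OK. Scripts ran in Python 3.11.15 with numpy 2.4.6, pandas 2.3.3 and scipy 1.17.1 and were checked on simulated data. That check asked for recovery only in genes with many fragments and for changes larger than 2-fold. It did not cover the low values that carried most of the differences. Other scalings, pseudocounts, minimums, fold sizes and gene sets were tried.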

Additional observations from a re-analysis of the deposited data

How the results depend on the processing

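The counts of higher and lower genes, 16 and 27 as reported, were recomputed with 1 choice changed at a time. Equal sums with mitochondrial mRNAs gave 29 and 14, a pseudocount of 0.1 gave 28 and 45, a pseudocount of 5 gave 1 and 8, a minimum value of 5 gave 5 and 14, and a 1.5-fold rule gave 38 and 71. Chromosome 16 alone gave 10 and 16, and protein-coding genes alone 7 and 11. With choices made after seeing the data, genes with at least 10 estimated fragments in the 2 libraries together gave 4 and 15, and genes without exon overlap 9 and 15. Nuclear-sum scaling (17 and 26), median-ratio scaling (18 and 24) and segments ended 10 genes earlier (15 and 26) stayed within 1.5 times. Leaving out the minimum had to return 16 and 27. With a pseudocount of 1, no gene below 1 in both libraries can pass the rule. The median of the mitochondrial mRNAs, -0.57, was -0.21 with equal sums, -0.54 with equal nuclear sums and -0.51 with median-ratio scaling. Of the 10 genes named by the size rule, 6 remained past it with equal sums (not Hes1, Mrpl39, Vpreb1 and Vpreb2), 10 with nuclear sums, 9 with median-ratio scaling (not Mrpl39), 10 with a pseudocount of 0.1 and 4 with a pseudocount of 5. Those 4 were Vpreb1, Vpreb2, Popdc2 and Lmln. The 10 with a pseudocount of 0.1 were fixed in advance, because a smaller pseudocount can only enlarge a ratio. No paired analysis was possible because each genotype had 1 library. No replicate could be left out for the same reason. Of the 10 genes named by the size rule, Pigz and Apod rest on the fewest estimated fragments. By transcript length, the median ratio of protein-coding genes with a value of at least 5 ran from -0.03 (254 genes under 1000 bases) to -0.11 (32 genes over 4000 bases).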
